A study of Mus musculus with 8 samples.

Results

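A set of 33 genes was read that encode enzymes and transporters of glycolysis, the hexosamine pathway and glycogen turnover in brain endothelial cells of mouse pups labelled as endothelial knockouts of the glucose transporter GLUT1. The genes were chosen by function: the glycolytic enzymes other than the phosphofructokinases, the enzymes that make and use UDP-N-acetylglucosamine, and the enzymes that build and break down glycogen. Their symbols matched 34 of the 25700 gene rows of the count tables, since Aldoa has 2 Ensembl rows. Of the 34 rows, 17 belong to glycolysis, 7 to the hexosamine pathway and 10 to glycogen, and 33 had enough counts to be tested; Hkdc1 did not. In the fit across all genes, none of the 33 was called higher or lower in the knockout.

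The series compared 4 pups labelled GLUT1EC-/- (KO below) with 4 labelled WT, all C57BL/6 and all at postnatal day 6. Brain endothelial cells were sorted by flow cytometry, lysed uncultured, and sequenced as poly(A) RNA in a strand-marking library, 1 library for each pup. The label gives the KO as a loss of GLUT1 in endothelial cells; the sources used here give neither the driver of the deletion nor the exons it removes. By the sample titles, WT pup 5 shared the cage of the 4 KO pups while WT pups 1, 2 and 3 were housed in another, so genotype and cage can hardly be told apart. The names of the deposited files instead place another WT pup, titled WT pup 3, with the KO pups, and both assignments were tried.

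Glycolysis splits glucose into pyruvate or lactate in the cytosol, and endothelial cells are known to draw much of their ATP from it. The hexosamine pathway branches off at fructose phosphate and yields UDP-N-acetylglucosamine, the sugar donor for protein glycosylation and for O-GlcNAc, a single sugar placed on nuclear and cytosolic proteins. Glycogen is a branched glucose store, assembled from UDP-glucose and released by phosphorylases. In the brain, GLUT1 (Slc2a1) of the endothelium carries blood glucose both into the endothelial cell and across it.

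Libraries held 20858070 to 40833036 counts in KO and 25886455 to 114007737 counts in WT, where WT pup 2 was by far the deepest. A count of 0 allows a level of at most 0.0269 to 0.144 counts per 1000000 (CPM) depending on the library, for counting error only. KO pup 1 had the fewest genes with a count, 13624, against 15756 to 17082 in the others. Slc2a1, counted over the whole gene, lay at 1386, 1511, 1528 and 1602 CPM in KO pups 1 to 4 and at 2238, 3420, 2792 and 3726 CPM in WT pups 1, 2, 3 and 5. Each KO library was thus below each WT library, and the log2 fold change was -1.01 (SE 0.14, edgeR adjusted p = 0.00619). With a cage term by title it was -1.31 (edgeR adjusted p = 0.0207) and the call held. It was -0.89 with a cage term by file name (adjusted p = 0.331) and -0.91 with the pup-number block (adjusted p = 0.0931), so the call ended in these last edgeR fits. The 10 endothelial markers summed to between 15526 and 17515 CPM in KO and between 16421 and 17745 CPM in WT, above the sum of any other marker list in every library. The highest sums of the other lists were 2567 CPM for mural cells, 1632 CPM for red blood cells, 1440 CPM for microglia, 431 CPM for astrocytes, 241 CPM for fibroblasts, 153 CPM for the oligodendrocyte lineage and 44.0 CPM for neurons.

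To show where the enzymes' genes start, the RefSeq table of mouse promoters (build GRCm38.p6) held entries for 32 of the 33 symbols, with 44 start sites between them; Gnpnat1 was named only. The 250 bases before the start are printed for the lactate dehydrogenase pair, whose members differ in level, and for Gfpt1 and Ogt, the hexosamine genes with the smallest p-values. Capitals mark ACGTG (the core bound by hypoxia-inducible factors), CACGTG (the E-box bound by MYC, which contains ACGTG) and GGGCGG (the GC box), each searched on both strands.
Ldha, first start, chr7:46845554-46845803, plus strand: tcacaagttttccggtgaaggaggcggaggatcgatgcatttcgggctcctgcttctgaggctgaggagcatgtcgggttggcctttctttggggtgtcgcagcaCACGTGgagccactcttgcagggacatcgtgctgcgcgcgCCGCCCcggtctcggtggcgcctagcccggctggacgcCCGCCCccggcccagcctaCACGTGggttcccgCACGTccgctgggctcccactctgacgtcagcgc
Ldha, the other start, chr7:46846832-46847081, plus strand: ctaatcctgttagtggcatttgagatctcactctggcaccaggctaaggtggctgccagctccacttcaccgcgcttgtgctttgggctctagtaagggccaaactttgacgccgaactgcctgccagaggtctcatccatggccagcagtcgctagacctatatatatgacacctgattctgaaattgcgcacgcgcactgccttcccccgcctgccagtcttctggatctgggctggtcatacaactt
Ldhb, chr6:142507958-142508207, minus strand: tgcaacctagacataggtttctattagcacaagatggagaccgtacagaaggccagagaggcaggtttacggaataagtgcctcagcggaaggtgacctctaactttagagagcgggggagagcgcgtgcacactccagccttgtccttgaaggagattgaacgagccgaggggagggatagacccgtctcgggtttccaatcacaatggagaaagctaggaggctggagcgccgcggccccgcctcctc
Gfpt1, chr6:87042596-87042845, plus strand: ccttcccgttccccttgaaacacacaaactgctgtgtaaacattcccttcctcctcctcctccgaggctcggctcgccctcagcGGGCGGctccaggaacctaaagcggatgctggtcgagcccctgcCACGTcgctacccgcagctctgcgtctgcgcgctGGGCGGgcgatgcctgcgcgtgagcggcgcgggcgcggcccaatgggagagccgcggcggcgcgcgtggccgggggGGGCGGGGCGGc
Ogt, first start, chrX:101639801-101640050, plus strand: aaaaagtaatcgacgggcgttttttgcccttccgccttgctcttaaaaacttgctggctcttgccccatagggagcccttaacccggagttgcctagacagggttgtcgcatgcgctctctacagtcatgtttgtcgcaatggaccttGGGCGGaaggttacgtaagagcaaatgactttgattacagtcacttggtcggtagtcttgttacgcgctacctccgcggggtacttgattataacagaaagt
The first Ldha window held CACGTG at 2 places and 3 stretches with ACGTG, while the windows of its other start and of Ldhb held none of these letters. The Gfpt1 window held 1 stretch with ACGTG and 4 GC boxes, and the Ogt window 1 GC box. In windows of 250 bases before and 50 after the start, ACGTG occurred in 14 of the 44 member promoters (31.8%), against 20.8% of the promoters of all tested genes. GGGCGG was in 61.4% of member promoters and 56.3% of those of tested genes, and CACGTG in 4.55% and 7.94%. TATAAA, the TATA box, was in 4.55% and 6.65%. A match is a description of the letters, not a bound site.

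The levels of the enzymes spanned more than 3 orders of magnitude. Levels are compared between genes as counts per kilobase of exon and per 1000000 counts of the scaled library total (RPKM). In WT, Pkm, which makes pyruvate and ATP in the last step, was highest at 142 ± 13.7 RPKM (SD, n = 4). Aldoa followed at 95.2 ± 13.8, Ldha at 88.3 ± 4.10, Gapdh at 71.6 ± 10.7 and Gpi1 at 65.4 ± 5.92 RPKM. Pkm exceeded Aldoa in all 4 WT libraries without overlap; the ranges of Aldoa and Ldha overlapped, as did those of Gapdh and Gpi1. Tpi1 (41.0 ± 4.36), Ogt (34.5 ± 7.43), Eno1 (30.1 ± 4.06), Bpgm (29.7 ± 3.72), Gsk3a (29.5 ± 1.67) and Ldhb (25.3 ± 2.60) came next, each overlapping its neighbour in the order. Ugp2, Gyg, Pygb, Pgk1, Hk1 and Pgam1 followed in this order, down to 13.4 ± 1.07 RPKM for Pgam1. At the low end, Hk2 was at 0.877 ± 0.240, Pygl at 0.758 ± 0.141, Gfpt2 at 0.277 ± 0.0589, Eno2 at 0.186 ± 0.0986 and Hkdc1 at 0.0579 ± 0.0241 RPKM.

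**Figure D1:**
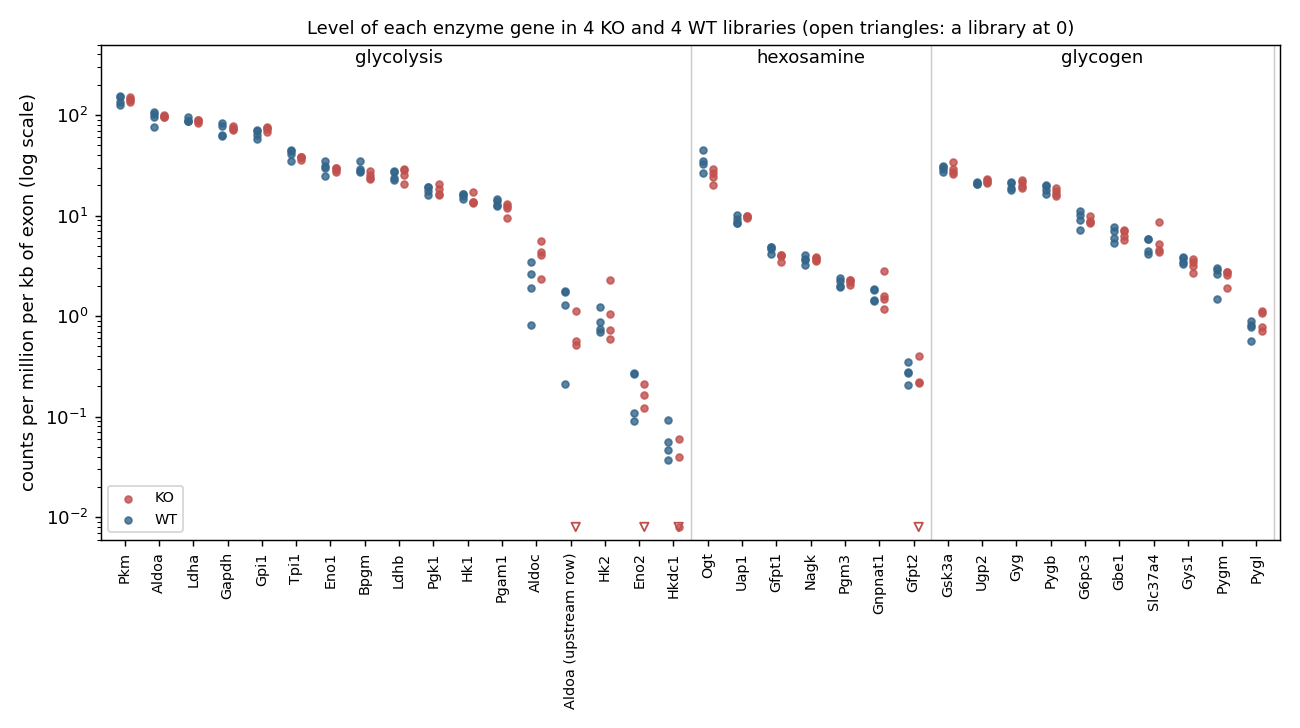
Level of each enzyme gene in the 4 WT (blue) and 4 KO (red) libraries, as RPKM on a log axis, grouped by pathway; open triangles mark a library at 0. Pkm is at the top near 142 in WT and Hkdc1 at the bottom near 0.0579, and the blue and red points of most genes lie over each other.

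Some of these levels depend on how reads from copies of a gene were counted, which the sources used here do not give. Of the 100-base windows of the longest coding transcript, 78.1% for Gapdh, 67.0% for Pgk1, 59.0% for Eno1 and 39.7% for Pgam1 also occur in another annotated gene, mostly processed pseudogenes. Counted per unshared window, a measure chosen after seeing the data, Gapdh moved from rank 4 to rank 1 in WT, Eno1 from rank 8 to rank 3 and Pgk1 from rank 15 to rank 8, while Pkm went from rank 1 to rank 2. The ranks of these 4 genes by RPKM are therefore uncertain, and so are those of genes whose exons overlap a gene on the other strand. That overlap covered 81.9% of the exon length of Gnpnat1 (with Styx), 28.3% of Pgm3 (with Dop1a), 28.3% of Gsk3a (with 9130221H12Rik), 11.5% of Gpi1 (with Gm26762) and 6.47% of Gys1 (with Ruvbl2). On the same strand, Gm49759 overlaps 15.3% of the exon length of Pkm, the gene ranked highest by RPKM, and Gm25353 overlaps 1.56% of Gnpnat1. How reads in these stretches were counted is not given either. The ratios between isoforms given below depend on the length used too, and their SD does not include this. Per kilobase of the longest coding transcript, WT levels were 31.4 CPM for Hk1 and 0.949 CPM for Hk2. They were 161 and 30.4 CPM for Ldha and Ldhb, 79.9 and 0.313 CPM for Eno1 and Eno2, and 7.48 and 0.525 CPM for Gfpt1 and Gfpt2.

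The fit across all genes tested 14154 rows with edgeR's quasi-likelihood test, and 55 passed an adjusted p of 0.05, which is 0.389% of them. None of the 33 members tested was among them, in either direction; for the lower direction the share over all genes was 0.113%. At an unadjusted p under 0.05 there were 4 members (Ogt, Gfpt1, Bpgm and Aldoc), against 1575 of all genes, or 11.1%, a share close to the members' own. limma-voom called 0 members, and DESeq2 called 1, Ogt, as lower, where DESeq2 called 1.45% of all genes lower. The members split into 16 with a log2 fold change above 0 and 17 below, with a median of -0.003 against 0.002 over all tested genes. The medians were -0.01 for glycolysis, 0.02 for the hexosamine pathway and 0.004 for glycogen.

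The intervals, from the fit of genotype alone, show how large a difference that fit leaves room for. They include no uncertainty from cage, which can hardly be told apart from genotype. With a cage term by file name, the Bpgm log2 fold change was -0.49, outside its interval of -0.47 to -0.03. With a cage term by title, that of Gapdh was 0.25, inside its interval of -0.18 to 0.27. For 24 of the 33 members the whole 95% interval of the fold change lay within 1.5-fold in either direction (72.7%, against 58.3% of all genes), and for 15 it lay within 1.25-fold (45.5%, against 25.5%). All 12 glycolytic members at 10 RPKM or more in WT lay within 1.5-fold, and 8 of them within 1.25-fold. The log2 fold changes of these 12 ran from -0.25 (Bpgm) to 0.15 (Gpi1). The low-level genes were not bounded in this way: the interval of Eno2 ran from -2.47 to 1.37 and that of Gfpt2 from -2.18 to 1.39 on the log2 scale.

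**Figure D2:**
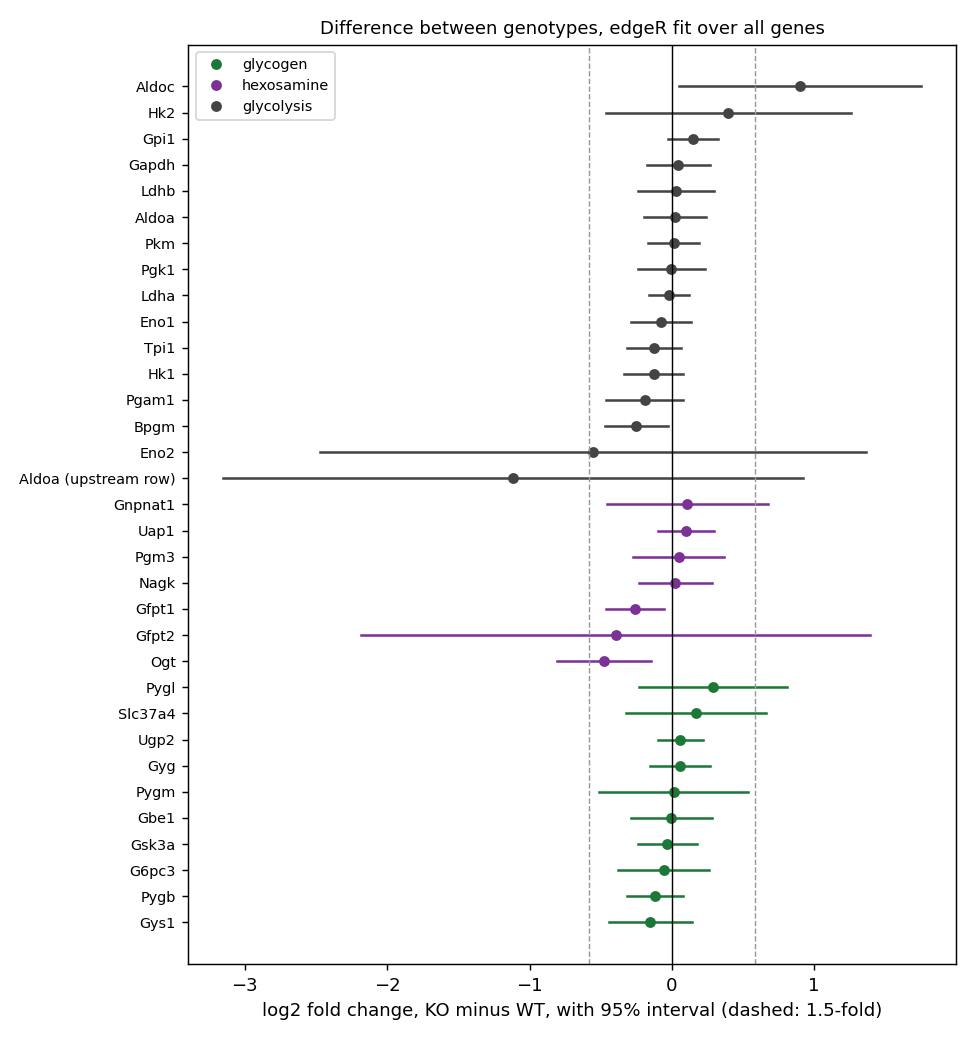
Log2 fold change of each tested member, KO minus WT, with its 95% interval from the edgeR fit over all genes, coloured by pathway; dashed lines mark 1.5-fold. Intervals are short for abundant genes such as Ldha (-0.16 to 0.12) and long for scarce ones such as Eno2 (-2.47 to 1.37).

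Hexokinases trap glucose in the cell as glucose phosphate. Hk1, the form that most tissues use, lay at 147, 112, 116 and 116 CPM in KO pups 1 to 4 and at 140, 125, 140 and 132 CPM in WT pups 1, 2, 3 and 5. KO pup 1 was the highest of all 8 libraries and the other 3 KO libraries the lowest, and the log2 fold change was -0.13 (interval -0.34 to 0.08). Hk2, the form induced by insulin and hypoxia, was at 3.50, 6.22, 13.5 and 4.37 CPM in KO and 7.27, 4.11, 4.39 and 5.16 CPM in WT. KO pup 3 alone stood apart, and its microglial markers summed to 1440 CPM, the highest of the 8 libraries (520 to 1058 CPM in the other KO libraries, 552 to 913 CPM in WT). Of the 8 microglial markers all had a log2 fold change above 0, none passed the test and none was at 0 in any library; their part in the Hk2 value was not tested. The Hk2 log2 fold change was 0.40 with all libraries and -0.16 without KO pup 3. Per exon length, Hk1 was 18.7 ± 3.96 times as high as Hk2 in WT. Hkdc1, a hexokinase-like enzyme of low abundance, had 0, 0.0414, 0.204 and 0.310 CPM in KO and 0.238, 0.287, 0.190 and 0.473 CPM in WT.

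Between hexokinase and the triose phosphates, Gpi1 (glucose phosphate isomerase) and Aldoa and Aldoc (aldolases, which split the sugar) were measured. Gpi1 was at 471, 485, 475 and 439 CPM in KO and 452, 372, 451 and 411 CPM in WT; the 2 groups overlapped (log2 fold change 0.15, SE 0.08, edgeR adjusted p = 0.534). Aldoa, the ubiquitous aldolase, was at 276, 288, 277 and 283 CPM in KO and 312, 221, 298 and 278 CPM in WT, so the KO values lay inside the WT range. A second Ensembl row with the symbol Aldoa, ENSMUSG00000114515, lies upstream on the same strand (chr7:126800790-126809108, GRCm38) and held few reads. It was at 0, 0.414, 0.449 and 0.907 CPM in KO and at 0.167, 1.02, 1.41 and 1.38 CPM in WT. Its log2 fold change of -1.12 was the farthest from 0 among the members and came with an SE of 0.93.

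Aldoc, the aldolase of brain that astrocytes express strongly, was at 14.2, 18.1, 7.64 and 13.1 CPM in KO and 6.18, 2.69, 8.65 and 11.2 CPM in WT. Of the 4 KO libraries 3 lay above every WT library and KO pup 3 lay among them (log2 fold change 0.90, SE 0.39, edgeR adjusted p = 0.415). Some astrocyte transcripts varied beside it. Gfap, the intermediate filament of astrocytes, singled out after its values were seen, was at 31.3, 65.1, 17.8 and 41.5 CPM in KO and 13.4, 5.41, 23.9 and 15.8 CPM in WT. The log2 fold changes were 1.43 for Gfap, 1.13 for the water channel Aqp4 and 1.08 for the glutamate transporter Slc1a2. Of the 10 astrocyte markers 6 were above 0 and 4 below, none passed the test, none was at 0 in any library, and their sum was 314 to 431 CPM in KO and 330 to 396 CPM in WT. The sum was highest in KO pup 4, and in KO pup 2, the library highest in Aldoc, it was 391 CPM, below the 396 CPM of WT pup 5. Most of the sum in every library was Gja1, singled out after its values were seen. Gja1 was at 235, 234, 247 and 303 CPM in KO and 270, 334, 280 and 313 CPM in WT (log2 fold change -0.23). Gfap, Aqp4, Slc1a3 and Slc1a2 were highest in KO pup 2, and the other markers were highest in other libraries. The part of the astrocyte markers in the Aldoc values was not tested, and in these bulk libraries fewer cells of a type and less RNA per cell cannot be told apart. As a share of aldolase reads per length, Aldoc made up 4.01% ± 1.21 in KO, against 2.20% ± 1.03 in WT (n = 4 each), with a two-sided exact permutation p of 0.0857, or 0.686 adjusted over the 8 isoform shares compared; the smallest p that 4 against 4 allows is 0.0286. Against WT pup 5 alone, the cage mate of the KO pups by title, the Aldoc log2 fold change was 0.24, and without WT pup 2 it was 0.61.

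None of the genes for the steps from triose phosphate to pyruvate passed the test. Tpi1, which interconverts the trioses, was at 98.2 to 105 CPM in KO and 96.5 to 124 CPM in WT (log2 fold change -0.13). Gapdh, which makes NADH, was at 296, 296, 303 and 324 CPM in KO and 347, 261, 318 and 257 CPM in WT, with WT values on both sides of all 4 KO values (log2 fold change 0.04, interval -0.18 to 0.27). Pgk1, the first ATP-yielding kinase of the path, gave -0.003. Pgam1, the phosphoglycerate mutase, was at 18.8, 25.8, 24.6 and 23.6 CPM in KO and 29.1, 24.6, 27.4 and 24.9 CPM in WT. KO pup 2 lay within the WT range and the other 3 KO libraries at or below its lower end, KO pup 1 lowest, and the log2 fold change was -0.19 (SE 0.12, edgeR adjusted p = 0.623).

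Enolase is made by Eno1 in most cells and by Eno2 in neurons. Eno1 was at 158, 160, 152 and 145 CPM in KO and 188, 134, 166 and 161 CPM in WT (log2 fold change -0.08), the WT range enclosing all KO values. Added to the near-identical Eno1b row, it came to 169 ± 7.29 CPM in KO and 179 ± 24.6 CPM in WT. Eno2 was not detected in KO pup 1 and stood at 0.995, 0.776 and 0.573 CPM in KO pups 2 to 4 and 1.29, 0.430, 0.515 and 1.26 CPM in WT. In WT, Eno1 was 198 ± 91.3 times as high as Eno2 per exon length. Eno3, an enolase gene outside the member set, was at 2.60 ± 0.575 RPKM in WT, above Eno2 at 0.186 ± 0.0986 RPKM. Pkm, pyruvate kinase, was at 756, 725, 672 and 709 CPM in KO and 774, 627, 755 and 678 CPM in WT (log2 fold change 0.01, interval -0.16 to 0.19). These are counts of the whole gene and do not separate its splice forms.

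Lactate dehydrogenase turns pyruvate into lactate and restores NAD; Ldha encodes the muscle-type and Ldhb the heart-type subunit. Ldha was among the steadiest members: 295, 289, 276 and 293 CPM in KO and 313, 285, 285 and 287 CPM in WT, a log2 fold change of -0.02 with an interval of -0.16 to 0.12. Ldhb was at 45.4, 44.5, 32.6 and 39.5 CPM in KO and 37.1, 35.3, 42.4 and 43.8 CPM in WT (log2 fold change 0.03). Ldha exceeded Ldhb per exon length by 3.53 ± 0.451 times in WT, and Ldhb made up 22.8% ± 2.20 of the pair in KO, against 22.2% ± 2.21 in WT, with an exact permutation p of 0.714. The genotypes thus overlapped for the subunit share as well as for each subunit.

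Bpgm makes the bisphosphoglycerate that lowers the oxygen affinity of haemoglobin and is abundant in red blood cells. It was at 99.7, 90.1, 85.1 and 83.5 CPM in KO and 96.5, 105, 126 and 98.8 CPM in WT. Of the 4 KO libraries 3 lay below all WT libraries and KO pup 1 lay within the WT range (log2 fold change -0.25, SE 0.10, edgeR adjusted p = 0.370). The 8 red-cell markers summed to 571 to 1002 CPM in KO and 523 to 1632 CPM in WT; of the 6 tested, 1 was above 0 and 5 below, none passed the test, and Klf1 was at 0 in at least 1 library. WT pup 2, lowest in these markers, had more Bpgm than any KO library; the markers' part in the Bpgm value was not tested. Without WT pup 3 the Bpgm log2 fold change was -0.16, and with a cage term by file name it was -0.49.

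**Figure D3:**
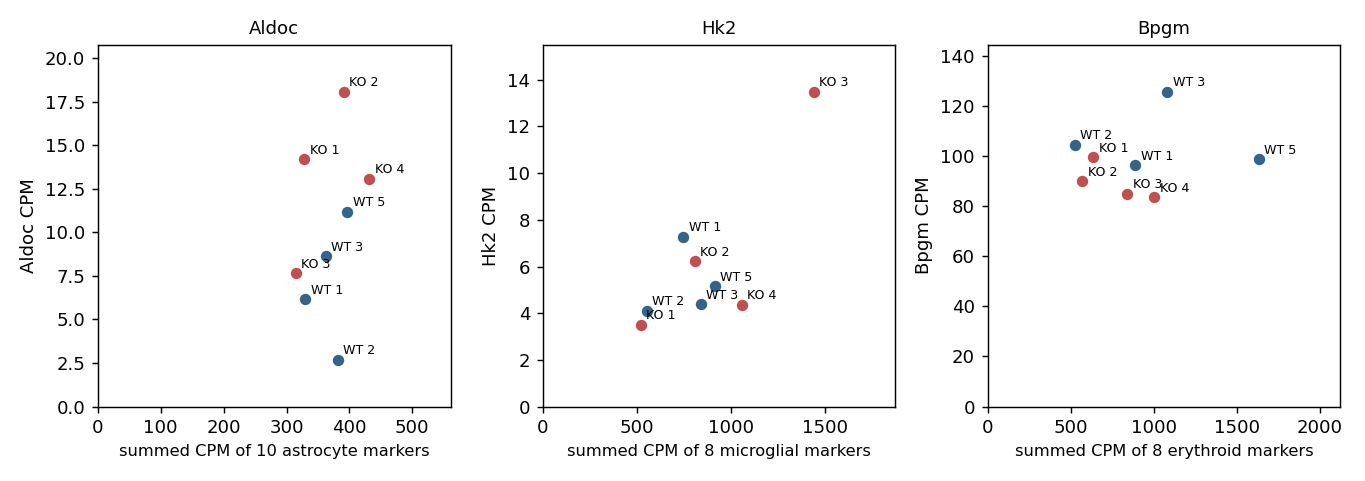
CPM of Aldoc, Hk2 and Bpgm in each library (red KO, blue WT, with pup numbers) against transcripts of cells that could accompany the endothelium: the sums of 10 astrocyte, 8 microglial and 8 red-cell markers. KO pup 3 is highest in both Hk2 (13.5) and the microglial sum (1440), while KO pup 2 is highest in Aldoc (18.1) and KO pup 4 in the astrocyte sum (431), and WT pup 3 is highest in Bpgm (126) and WT pup 5 in the red-cell sum (1632). Most of the astrocyte sum is Gja1.

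In total, the glycolytic members made up 0.266% ± 0.00658 of all KO counts and 0.262% ± 0.0285 of all WT counts (n = 4 each). The spread came from WT, where WT pup 2 was the lowest of the 8 libraries for 7 of the 16 tested glycolytic rows (Gpi1, Aldoa, Aldoc, Tpi1, Pgk1, Eno1 and Pkm) and WT pup 1 the highest for 7. WT pup 2 was also the lowest in mural markers, with 459 CPM against 1333 to 2567 CPM in the other 7 libraries.

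The hexosamine genes held the member with the smallest p and the member whose groups were apart. Gfpt1, the entry and rate-setting enzyme of the pathway, was at 34.3, 40.4, 40.2 and 41.0 CPM in KO and 48.8, 47.2, 41.8 and 48.8 CPM in WT. It was the only member of the 33 tested whose KO and WT values did not overlap; over all genes 7.19% had no overlap, and 3.43% had none with KO lower. The difference was small, at -0.26 on the log2 scale (SE 0.09, 95% bounds -0.46 and -0.05), and did not pass the test (edgeR adjusted p = 0.318). KO pup 4, the highest KO library, lay just under WT pup 3, the lowest WT library. With a cage term by file name the value was -0.10. Gfpt2, the isoform known from the nervous system, was at 0, 2.24, 1.23 and 1.22 CPM in KO and 1.55, 1.51, 1.17 and 1.97 CPM in WT, and its log2 fold change of -0.39 became 0.01 without KO pup 1. Gfpt1 was 17.1 ± 2.53 times as high as Gfpt2 per exon length in WT.

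The middle steps of the pathway gave values near 0. Gnpnat1, the glucosamine phosphate acetyltransferase, had a log2 fold change of 0.11, and -0.20 without KO pup 1, which at 13.1 CPM exceeded the other 7 libraries (5.61 to 8.70 CPM). Pgm3, the mutase that follows, gave 0.05, and Uap1, which joins the sugar to UDP, 0.10 with KO at 37.7 to 40.1 CPM and WT at 33.8 to 40.6 CPM. Nagk, which recycles N-acetylglucosamine from broken-down glycans, gave 0.02. None of these 4 passed the test.

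Ogt, the transferase that places O-GlcNAc on proteins, had the smallest p of all members. It was at 211, 231, 194 and 163 CPM in KO and 281, 356, 261 and 213 CPM in WT. KO pup 2 lay above WT pup 5 and the other KO libraries lay below every WT library. On the log2 scale the difference was -0.48 (SE 0.15, 95% bounds -0.81 and -0.15), or 0.718 of the WT level, with an edgeR adjusted p of 0.242. DESeq2 gave the same size, -0.48, with an adjusted p of 0.0461, the only method and setting of those run under which Ogt passed. The size depended on which WT libraries were compared: it was -0.09 against WT pup 5 alone, the only WT cage mate of the KO pups by title, -0.39 with cage taken from the file names, -0.34 without WT pup 2 and -0.59 without WT pup 5. Both cage assignments leave the KO pups a single WT cage mate, so each cage-adjusted value rests on 1 WT library.

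The enzyme that removes O-GlcNAc is encoded by Mgea5, the annotation's name for O-GlcNAcase. Mgea5 was at 312, 285, 243 and 247 CPM in KO and 207, 256, 210 and 224 CPM in WT, with KO pups 3 and 4 below WT pup 2 (log2 fold change 0.28, SE 0.10, edgeR adjusted p = 0.319). Neither gene of the O-GlcNAc pair passed the edgeR test. The ratio of Ogt to Mgea5 within a library, chosen after its values were seen and so given with no test, was 0.676, 0.811, 0.799 and 0.659 in KO and 1.36, 1.39, 1.24 and 0.950 in WT. The 2 groups did not overlap in this ratio, though they did for each gene alone, and WT pup 5 was the WT library nearest to KO. The ratio joins a gene that was lower in KO with one that was higher, which favours a gap. How often other pairs of genes separate in this way was not counted. As a whole the hexosamine members made up 0.0315% ± 0.00275 of all KO counts and 0.0394% ± 0.00578 of all WT counts, and Ogt made up most of this.

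**Figure D4:**
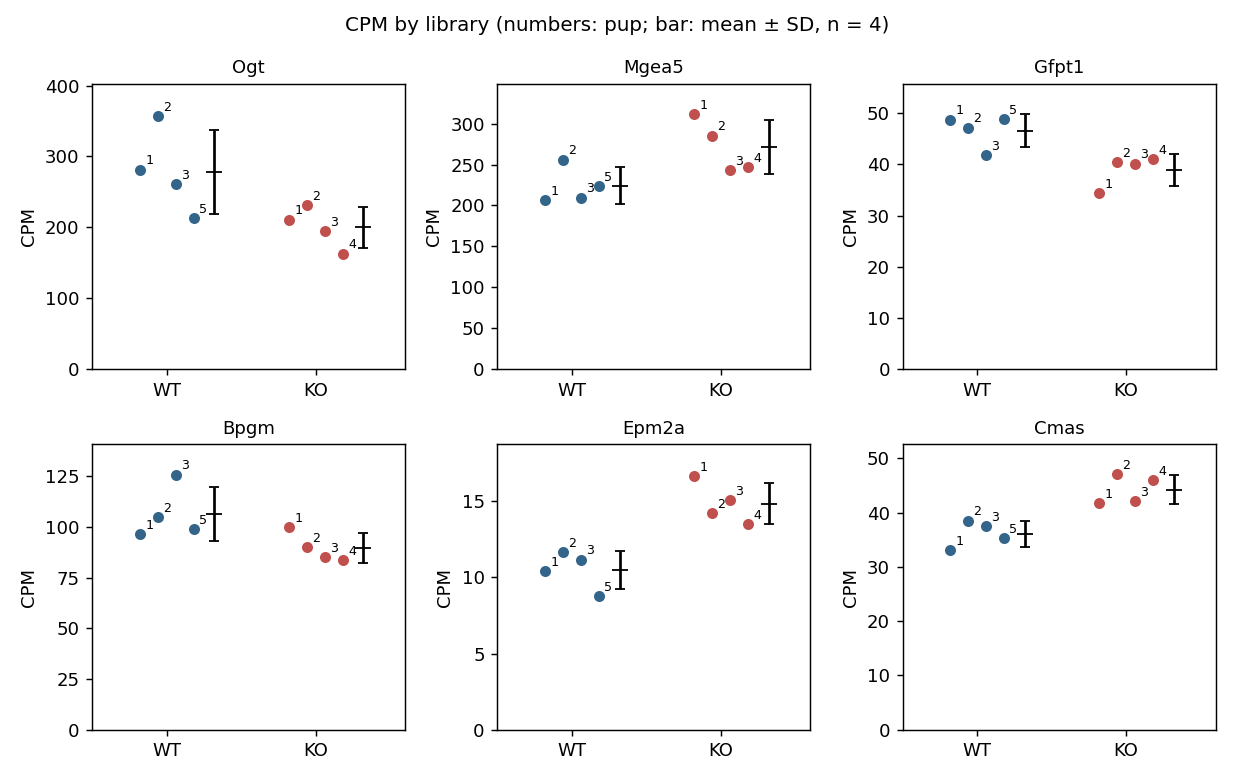
CPM of Ogt, Mgea5, Gfpt1, Bpgm, Epm2a and Cmas in each WT (blue) and KO (red) library, labelled with the pup number, with the mean ± SD of 4 libraries as a bar. The groups overlap for Ogt, Mgea5 and Bpgm, and are apart for Gfpt1 (KO up to 41.0, WT from 41.8), Epm2a (KO from 13.5, WT up to 11.6) and Cmas (KO from 41.7, WT up to 38.5); none of the 6 passed the edgeR test.

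For glycogen, the 10 members ran from a log2 fold change of -0.15 to 0.29, and none passed the test or reached an unadjusted p under 0.05. Among the synthesis genes, Ugp2, which makes UDP-glucose, was at 63.9 to 70.3 CPM in KO and 62.7 to 66.4 CPM in WT (0.06), Gyg, the protein primer of the granule, gave 0.06, Gys1, the muscle-type synthase, -0.15, and the branching enzyme Gbe1 -0.003. Gsk3a, a kinase that inhibits glycogen synthase, gave -0.03. The interval of every glycogen member lay within 2-fold, and that of 8 of the 10 within 1.5-fold.

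Phosphorylases release glucose phosphate from glycogen, and the brain form led in these cells. Pygb was at 89.5, 76.0, 78.5 and 84.1 CPM in KO and 94.5, 79.2, 97.5 and 85.8 CPM in WT (log2 fold change -0.12). Pygm, the muscle form, was at 8.92, 8.83, 6.17 and 8.31 CPM in KO and 8.51, 4.79, 9.60 and 9.18 CPM in WT (0.01). Pygl, the liver form, was at 4.85, 7.46, 5.39 and 7.76 CPM in KO and 3.86, 5.57, 5.31 and 6.15 CPM in WT (0.29). The genotypes overlapped for all 3 forms. In WT, Pygb was 7.89 ± 2.18 times as high as Pygm per exon length and Pygm 3.41 ± 1.22 times as high as Pygl. Pygb made up 83.3% ± 2.28 of the phosphorylases in KO, against 85.2% ± 2.19 in WT (two-sided exact permutation p = 0.2, or 0.686 adjusted over the 8 shares).

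Free glucose is freed from glucose phosphate by a phosphatase fed by a transporter of the endoplasmic reticulum. G6pc3, the phosphatase found in most tissues, gave a log2 fold change of -0.06. Slc37a4, the transporter, was at 24.5, 12.4, 13.1 and 14.8 CPM in KO and 16.5, 11.8, 16.6 and 12.6 CPM in WT. KO pup 1 was the only library above 17 CPM, and the log2 fold change of 0.17 became -0.10 without it. Together the glycogen members made up 0.0384% ± 0.00179 of all KO counts and 0.0385% ± 0.00244 of all WT counts.

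The other genes of the 3 pathways were read from the same fit. Of 63 symbols listed, 62 had a row and 50 were tested; none was called higher and 1 lower, with a median log2 fold change of 0.009. The gene called was Pfkp, the platelet-type phosphofructokinase, which commits sugar to glycolysis. It was at 60.6, 71.0, 64.4 and 65.8 CPM in KO and 97.8, 100, 106 and 94.2 CPM in WT, each KO library below each WT library (log2 fold change -0.60, SE 0.08, edgeR adjusted p = 0.00467). With a cage term by title the value was -0.52 and with one by file name -0.69, at adjusted p of 0.330 and 0.155, so the call ended there while the size held. Of its exon length, 5.58% overlaps Pitrm1 on the other strand. The other phosphofructokinases Pfkl (-0.13) and Pfkm (0.07) did not pass, nor did Pfkfb2 (-0.22), which makes the activator of phosphofructokinase. That the Pfkp difference is larger than that of its neighbours in the path was not tested.

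In the hexosamine branch, Cmas, which activates sialic acid, was at 41.7, 47.1, 42.1 and 46.0 CPM in KO and 33.1, 38.5, 37.5 and 35.3 CPM in WT. The groups did not overlap, and the log2 fold change of 0.29 (SE 0.09) did not pass (edgeR adjusted p = 0.235). Among the other glycogen genes, Epm2a, which encodes laforin, the glycogen phosphatase whose loss causes Lafora disease, was at 16.6, 14.2, 15.1 and 13.5 CPM in KO and 10.4, 11.6, 11.2 and 8.79 CPM in WT. All 4 KO libraries were above all WT libraries, and the log2 fold change was 0.50 (SE 0.14, edgeR adjusted p = 0.210). Of the 50 other genes tested, 6 had no overlap between the groups (Pfkp, Pfkfb2, Gne, Cmas, Renbp and Epm2a), against the 7.19% of all genes. Gapdhs, Pgk2, Ldhc, Gys2 and Ppp1r3g, tissue-restricted members of these families, had no count in any of the 8 libraries.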

How the data were processed

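RNA of brain endothelial cells sorted from 4 KO and 4 WT pups was sequenced as single-end reads of 100 bases, per the labels' protocols. The deposited tables hold raw read counts per Ensembl gene, 1 table for each library, made by the authors with STAR and featureCounts on GRCm38, per the submitters' processing notes. The tools' versions, the annotation, the strand setting and the treatment of multiply mapped reads were not given in the sources used here. Gene names, exon lengths and overlaps came from GENCODE M21 (GRCm38). The genotype contrast was fitted in edgeR 4.0.16 (R 4.3.3): TMM factors, filterByExpr (minimum count 10, minimum total 15), glmQLFit and glmQLFTest of genotype over all 8 libraries, and Benjamini-Hochberg values over the 14154 genes kept, with a threshold of 0.05. DESeq2 1.42.0, limma-voom (limma 3.58.1), other scalings, no filter, cage terms, a pup-number block and leaving out each library were alternatives. The scripts were tested on simulated data. Each pup is a separate animal. CPM values are counts divided by the library total; RPKM adds division by the exon length. For isoform shares, the exact permutation test was two-sided and ran through all 70 ways to label the libraries.

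The members and lists were chosen with earlier results of these data known. All members are named; values in each library are given for members called, members without overlap, the 6 smallest p-values, the 3 largest changes, and the isoforms of 6 enzyme families, and for up to 2 other genes per pathway with the smallest p-values; further genes were added after their values were seen. Some genes that this rule or these lists include are not reported here.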

Additional observations from a re-analysis of the deposited data

Results flagged for a closer look

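Among 82 groups of 4 libraries, 7 held a library whose gap to its nearest neighbour was a larger part of the whole range of log2 CPM than Dixon's 95% critical value allows; chance flags about 1 group in 20. Within KO, pup 1 stood apart for Hk1, which was high there (0.890 of the range), and for Gfpt1 (0.885), Gfpt2 (0.846) and Eno2 (0.831), which were low or not detected. KO pup 2 was low for Tpi1 (0.927). Within WT, pup 1 was high for Ldha (0.938) and low for the upstream Aldoa row, ENSMUSG00000114515 (0.838).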

How the results depend on the processing

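No member passed the edgeR test in any alternative; DESeq2 called 1 member lower (Ogt). Of the 33 tested members, 14 kept the sign of their log2 fold change in all 18 alternative fits (Ogt, Gfpt1, Bpgm and Aldoc among them) and 19 did not, all of them uncalled. The number of genes called over the whole table moved more: from 55 (39 higher, 16 lower) to 84 with no filter (46 higher, 38 lower), 351 with DESeq2 (158 higher, 193 lower), 16 with a cage term by title, 10 with a cage term by file name, 22 within the cage of the KO pups and 32 to 85 when single libraries were left out (lowest without KO pup 3, highest without KO pup 1). Of the other pathway genes, 0 in place of 1 (Pfkp) were called with either cage term, within the cage and with the replicate block. Slc2a1 was called with the cage term by title (-1.31, edgeR adjusted p = 0.0207). It was not called with the cage term by file name (-0.89, adjusted p = 0.331) or with the replicate block (-0.91, adjusted p = 0.0931). The cause was not tested. With the replicate block 11 genes were called. By the titles, KO and WT pups with the same number are different animals from different cages, so the numbers give no pairing. As a description only, deviations of same-numbered pups correlated at -0.0294, 0.0261 and -0.0711. Isoform shares passed no test in any setting, and the share of Ldhb changed sign in 4 of 10 settings, Gfpt2 in 2 and Hk1 in 1. Low counts limit Hkdc1, Eno2, Gfpt2 and the upstream Aldoa row.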
